A study of Macaca mulatta with 4 samples.

Results

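The core pluripotency genes are 10 genes whose transcripts mark undifferentiated primate embryonic stem cells: POU5F1, NANOG, PRDM14, SALL4, ZFP42, UTF1, DPPA2, DPPA4, L1TD1 and USP44. They were chosen by symbol, and each had exactly 1 row among the 23697 genes of the deposited table. Expression was measured by RNA sequencing in cells of the rhesus monkey, Macaca mulatta, and 3 of the 4 samples of the series are described here, with 1 library each. These are diploid neural progenitor cells (NPCs; embryonic stage E3.5 in the labels), haploid embryonic stem cells (ESCs; stage E2.5) and diploid ESCs (stage E3.5). All are labelled as embryo tissue differentiated in vitro, and haploid cells carry a single set of chromosomes. Haploid NPCs, the other sample, were not analysed here. The labels give no cell line, number of embryos or passage, so how far 1 library stands for its kind of cell is unknown.

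Pluripotent cells can form all tissues of the embryo proper. POU5F1 (OCT4) and NANOG, with SOX2, bind each other's enhancers and keep themselves and many shared targets active, while genes of the germ layers are held back. When such cells are directed to the neural lineage, POU5F1 and NANOG are shut off, whereas SOX2 stays on because neural progenitors use it too. Several of these genes are active again in primordial germ cells.

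The unit is FPKM, in which fragments are divided by transcript length and library size, so levels of different genes in a library can be set side by side. Summed FPKM lay between 492324 and 600215 in the 3 libraries. Set against the diploid ESC library, and estimated from the spacing of low values, sequencing depth was 79.0% in the NPC library and 97.3% in the haploid ESC library. A value below 1 FPKM can rest on few reads, and read counts were not at hand. With 1 library per group no value has a replicate error, no test between groups was possible, and orders of levels cannot be checked against a spread. Ratios between libraries are log2 ratios of FPKM plus 1, which understate the differences of genes with low values. A gene was counted as different at 4-fold or more, among the 14474 genes that averaged 1 FPKM or more over the 3 libraries. All 10 members passed that filter. In diploid NPCs 4 of them reached 1 FPKM, as 14022 of all 23697 genes did.

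The 10 transcripts together made up 0.00348% of summed FPKM in diploid NPCs, 0.378% in haploid ESCs and 0.457% in diploid ESCs. Member levels ran from 0.07 to 7.93 FPKM in diploid NPCs, with a median of 0.35 FPKM. In haploid ESCs they spanned 0.25 to 1332 FPKM with a median of 43.2 FPKM, and in diploid ESCs 11.96 to 1859 FPKM with a median of 63.4 FPKM. POU5F1 alone was 7.19% of the members' sum in diploid NPCs, 71.6% in haploid ESCs and 71.5% in diploid ESCs. In bulk RNA, fewer cells that carry a transcript and less of it per cell cannot be told apart.

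**Figure D1:**
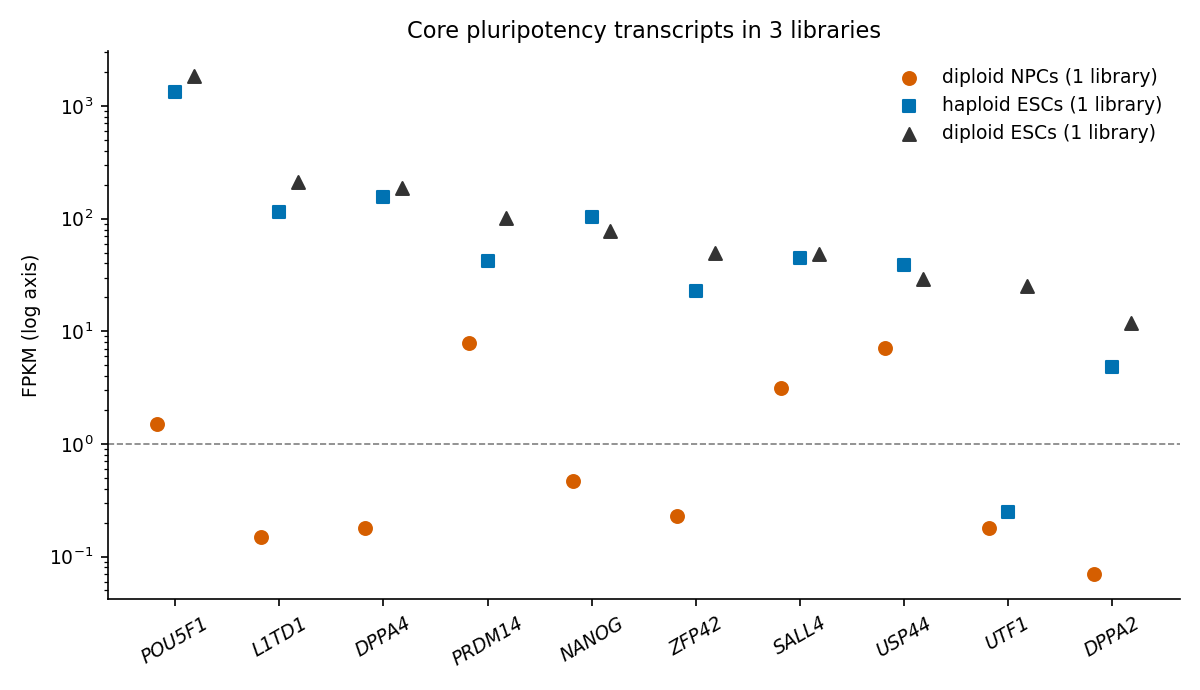
FPKM of the 10 members on a log axis, in diploid NPCs (circles), haploid ESCs (squares) and diploid ESCs (triangles), 1 library each, ordered by the diploid ESC level; the dashed line marks 1 FPKM. In diploid NPCs PRDM14, USP44, SALL4 and POU5F1 lie above the line, and UTF1 is the single member below it in haploid ESCs.

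The transcription factors at the centre of the network come first. POU5F1 (NCBI gene 714760) stood at 1.5 FPKM in diploid NPCs, 1332 FPKM in haploid ESCs and 1859 FPKM in diploid ESCs. It was thus at rank 18 of all genes in haploid ESCs and rank 29 in diploid ESCs, but at rank 12942 in diploid NPCs. NANOG, a homeodomain factor (NCBI gene 715746), was at 0.47 FPKM in diploid NPCs, 103 FPKM in haploid ESCs and 77.1 FPKM in diploid ESCs. Both ESC libraries carried these 2 factors at high levels, and in neither was NANOG near the level of POU5F1.

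PRDM14 and SALL4 are zinc finger factors of the same network and kept more transcript in NPCs. PRDM14 (NCBI gene 693324) promotes POU5F1 expression in human ESCs and is needed for primordial germ cells in the mouse. Its level was 7.93 FPKM in diploid NPCs, 42.2 FPKM in haploid ESCs and 102 FPKM in diploid ESCs. SALL4 (NCBI gene 700309), which recruits the NuRD repressor complex, was at 3.11 FPKM in diploid NPCs, 44.3 FPKM in haploid ESCs and 48.8 FPKM in diploid ESCs. PRDM14 was the highest member in diploid NPCs, above the value of 67.2% of all genes, although it was only the fourth highest in diploid ESCs.

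Chromatin-associated and marker genes follow. ZFP42, also known as REX1, is a zinc finger gene related to YY1 and a common marker of undifferentiated cells. Its level (NCBI gene 707621) was 0.23 FPKM in diploid NPCs, 22.7 FPKM in haploid ESCs and 49.8 FPKM in diploid ESCs. UTF1 (NCBI gene 719795), a chromatin-bound factor of undifferentiated cells, stood at 0.18 FPKM in diploid NPCs, 0.25 FPKM in haploid ESCs and 25.2 FPKM in diploid ESCs. On the log2 scale UTF1 was the only member whose haploid ESC level lay closer to the NPC level than to the diploid ESC level. In haploid ESCs it ranked 16125 among all genes, against 3560 in diploid ESCs.

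DPPA4 and DPPA2 encode related SAP-domain proteins that bind chromatin together. DPPA4 (NCBI gene 706631) was at 0.18 FPKM in diploid NPCs, 157 FPKM in haploid ESCs and 187 FPKM in diploid ESCs. DPPA2 (NCBI gene 708056) was far lower in ESCs, with 0.07 FPKM in diploid NPCs, 4.85 FPKM in haploid ESCs and 11.96 FPKM in diploid ESCs. The DPPA4 level was 32.3 times that of DPPA2 in haploid ESCs and 15.6 times in diploid ESCs. With the rows annotated as their copies added, described further on, these ratios were 21.0 in haploid ESCs and 14.1 in diploid ESCs.

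L1TD1 and USP44 are the members outside transcription control proper. L1TD1, an RNA-binding protein derived from a LINE-1 element that associates with LIN28 in human ESCs (NCBI gene 696162), was at 0.15 FPKM in diploid NPCs, 114 FPKM in haploid ESCs and 212 FPKM in diploid ESCs. USP44, a deubiquitinase that acts on histone H2B and in the spindle checkpoint (NCBI gene 712480), was at 7.05 FPKM in diploid NPCs, 38.6 FPKM in haploid ESCs and 28.8 FPKM in diploid ESCs. Without a pseudocount L1TD1 had the lowest NPC level of the members as a share of the diploid ESC level, but with a pseudocount of 1 or 0.1 POU5F1 had the lowest ratio. USP44 had the highest under each of these.

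How progenitors differ from stem cells of the same ploidy is the question put by diploid NPCs set against diploid ESCs. All 10 members were lower in diploid NPCs, as 49.6% of all 14474 genes were. By at least 4-fold it was 9 of them, against 6.11% of all genes. None of the members was at least 4-fold higher, as 8.28% of all genes were. The 6 members below 1 FPKM in diploid NPCs passed the filter only through their ESC levels. For these 6 the filter itself favours a lower NPC level, so the count is a description only. The median log2 ratio of the 10 members was -4.92, beside a median of 0.01 over all genes. USP44, at -1.89, was the exception, just under the 4-fold size. It passed 4-fold under a pseudocount of 0.1, with trimmed mean (TMM) factors and after rescaling every library to sum to 1000000 (TPM), which makes the count 10 of 10 in each. The share of all genes at least 4-fold lower was then 10.5%, 6.78% and 8.30%, in that order. PRDM14 at -3.53, DPPA2 and SALL4 at -3.60 each and UTF1 at -4.47 came next. POU5F1 had the lowest ratio at -9.54, followed by L1TD1 at -7.53, DPPA4 at -7.32, NANOG at -5.73 and ZFP42 at -5.37. Ratios of 9 members lay below the central 95% of all genes, which ran from -2.83 to 2.88, and USP44 lay inside it.

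**Figure D2:**
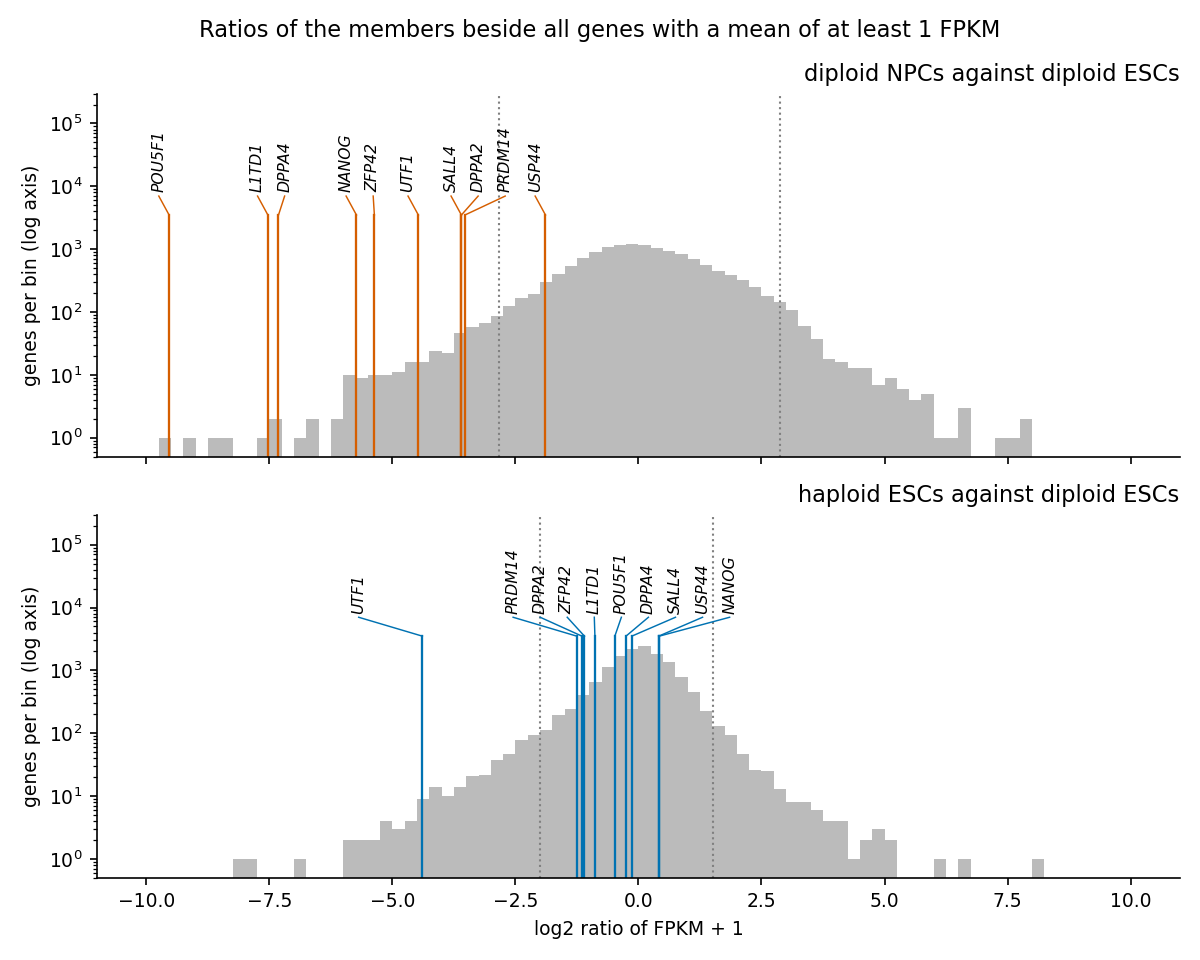
Log2 ratios of FPKM plus 1 for diploid NPCs against diploid ESCs (upper panel) and haploid against diploid ESCs (lower panel): grey bars count the 14474 genes on a log axis, dotted lines bound their central 95%, and coloured lines mark the 10 members. In the upper panel 9 members lie left of the dotted range and USP44 inside it; in the lower panel UTF1 alone lies outside.

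The level that remained in NPCs differed widely among the members. As a share of the diploid ESC level, without a pseudocount, it ran from 0.0708% for L1TD1 to 24.4% for USP44, a span of 345-fold. POU5F1 was at 0.0807% and DPPA4 at 0.0963% of the diploid ESC level. With an annotated copy of each added, L1TD1 was at 8.1% and DPPA2 at 12.0%. Without copies, a second set lay close together, with ZFP42 at 0.462%, DPPA2 at 0.585%, NANOG at 0.609% and UTF1 at 0.714%. SALL4 at 6.37%, PRDM14 at 7.78% and USP44 stood above these. PRDM14 was 5.29 times as high as POU5F1 in diploid NPCs, whereas it was 0.0317 times the POU5F1 level in haploid ESCs and 0.0548 times in diploid ESCs. These within-library ratios do not depend on how the libraries were scaled. For the members below 1 FPKM in NPCs the shares rest on low values, and their order among themselves was not tested.

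**Figure D3:**
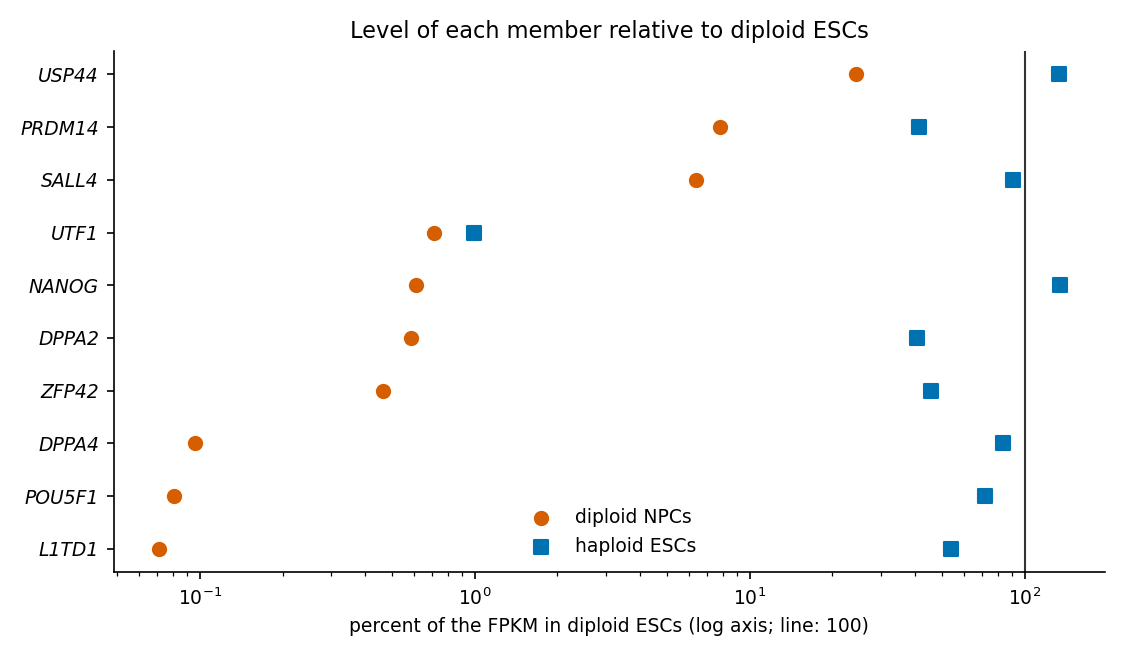
Level of each member as a percent of its FPKM in diploid ESCs, on a log axis, in diploid NPCs (circles) and haploid ESCs (squares), 1 library each; the vertical line marks 100%. The NPC points run from 0.0708% (L1TD1) to 24.4% (USP44), and the haploid ESC points from 0.991% (UTF1) to 134% (NANOG).

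Whether ESCs differ with ploidy is the question put by the haploid and diploid ESC libraries; the embryonic stage in the labels differs along with ploidy, and the 2 cannot be told apart. No member was at least 4-fold higher in haploid ESCs, against 1.04% of all genes. UTF1 was the single member at least 4-fold lower, as 2.53% of all genes were, and it passed the filter only through its diploid ESC level. Its haploid ESC level was 0.991% of the diploid ESC level, a log2 ratio of -4.39. Genes at least 4-fold higher made up 29.2% of all calls in this comparison, or 40.3% after rescaling to TPM. At 2-fold, 4 members were lower, with 9.18% of all genes: UTF1, PRDM14 at -1.25, DPPA2 at -1.15 and ZFP42 at -1.10; with its annotated copy added, DPPA2 was at -0.74. L1TD1 had a ratio of -0.89, POU5F1 of -0.48, DPPA4 of -0.25 and SALL4 of -0.14. NANOG, at 0.42, and USP44, at 0.41, were the members higher in haploid ESCs; rescaled to TPM, SALL4 was higher too, at 0.07.

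The members' median log2 ratio was -0.68 in haploid against diploid ESCs, beside 0.02 over all genes. Rescaling to TPM moved the median of all genes to 0.21 and that of the members to -0.48, so that the members lay 0.69 below all genes, compared with 0.71 without rescaling. The other 9 members lay inside the central 95% of all genes, which spanned -2.01 to 1.52. Relative to each other, levels shifted between the ESC libraries. POU5F1 was 12.9 times as high as NANOG in haploid ESCs and 24.1 times in diploid ESCs, and 30.1 times as high as SALL4 in haploid ESCs and 38.1 times in diploid ESCs. By level, the order in haploid ESCs was POU5F1, DPPA4, L1TD1, NANOG, SALL4, PRDM14, USP44, ZFP42, DPPA2 and UTF1. In diploid ESCs it was POU5F1, L1TD1, DPPA4, PRDM14, NANOG, ZFP42, SALL4, USP44, UTF1 and DPPA2. No member other than POU5F1 had the same place in both orders. Both comparisons use the same diploid ESC library, so their ratios are not independent of each other.

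Setting diploid NPCs against haploid ESCs, which changes ploidy and labelled stage as well, left 9 members at least 4-fold lower in NPCs, with 7.9% of all genes. The exception there was UTF1, with a log2 ratio of -0.08, while USP44 was at -2.30. The 4-fold calls of UTF1 and USP44 thus depend on which ESC library the NPCs are set against.

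Some rows of the table are annotated with the protein of a member although they carry another gene identifier. There were 5 such rows, for 4 members. Those annotated as NANOG, LOC698989 and LOC107000728, together held 0.82 FPKM in diploid NPCs, 11.04 FPKM in haploid ESCs and 0.76 FPKM in diploid ESCs. A row annotated as similar to DPPA4, LOC699439, was listed at 0 in diploid NPCs, with 10.1 FPKM in haploid ESCs and 8.46 FPKM in diploid ESCs. The row annotated as DPPA2, LOC106996768, was at 1.59 FPKM in diploid NPCs, 3.08 FPKM in haploid ESCs and 1.91 FPKM in diploid ESCs, which in haploid ESCs is 63.5% of the DPPA2 level. LOC106999852, annotated as L1TD1 after an armadillo protein, ran the other way from L1TD1, with 17.3 FPKM in diploid NPCs, 6.17 FPKM in haploid ESCs and 3.25 FPKM in diploid ESCs. The reference gene annotation lists LOC106999852 as a long noncoding RNA and has no entry for LOC106996768. How alike these rows and the members are in sequence was not checked, so whether they are true copies is unknown. Reads from near-identical copies can be split between rows or dropped. If the rows are such copies, the values of NANOG, DPPA4, DPPA2 and L1TD1 are uncertain by that much. In diploid NPCs the row annotated as L1TD1 was 115 times as high as L1TD1, and that annotated as DPPA2 was 22.7 times as high as DPPA2. In both ESC libraries the copy's share was highest for DPPA2. With copies added, the log2 ratio in diploid NPCs against diploid ESCs was -3.55 for L1TD1, -2.48 for DPPA2, -5.11 for NANOG and -7.38 for DPPA4, so each stayed at least 4-fold lower, and the members' median was -4.04; DPPA2 then lay inside the central 95% of all genes. Adding the copies was chosen after the data were seen.

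Neighbouring genes were compared next. Of the members, 9 had a place in the gene order of the T2T-MMU8v2.0 assembly, where DPPA4 and DPPA2 lie side by side. The nearest gene with a row in the deposited table was taken on either side, which was not always the adjacent gene. Among the 14 of these neighbours that passed the filter, 4 were at least 4-fold lower in diploid NPCs than in diploid ESCs, as 6.11% of all genes were. At least 4-fold higher was 1, as 8.28% of all genes were. VENTX, TRIML2 and NTN4 passed the filter only through their ESC levels, so nothing is drawn from these counts. VENTX, a homeobox gene beside UTF1, was listed at 0 in diploid NPCs, with 0.53 FPKM in haploid ESCs and 5.32 FPKM in diploid ESCs. As with UTF1, its haploid ESC value lay near the NPC value. TRIML2, next to ZFP42, was at 0.03 FPKM in diploid NPCs, 10.1 FPKM in haploid ESCs and 8.41 FPKM in diploid ESCs, while NTN4, a netrin gene beside USP44, was at 0.49 FPKM in diploid NPCs, 20.1 FPKM in haploid ESCs and 5.39 FPKM in diploid ESCs. LOC715795, which the table annotates as a glucose transporter and which adjoins NANOG, was at 10.5 FPKM in diploid NPCs, 39.2 FPKM in haploid ESCs and 146 FPKM in diploid ESCs. NANOGNB on the other side of NANOG was the higher one, with 22.4 FPKM in diploid NPCs, 0.96 FPKM in haploid ESCs and 1.9 FPKM in diploid ESCs. TCF19, next to POU5F1, stayed between 5.69 and 7.69 FPKM in all 3 libraries.

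Other genes of the pluripotency network were lower in NPCs as well. TERT, at 0.02 FPKM in diploid NPCs, 0.4 FPKM in haploid ESCs and 1.1 FPKM in diploid ESCs, did not pass the filter. Of the other 14 genes found from a list that holds none of the members, 11 were at least 4-fold lower in diploid NPCs than in diploid ESCs, as 6.11% of all genes were. No gene of the 14 was higher. Those below 1 FPKM in NPCs, such as VRTN and FOXD3, passed the filter only through their ESC levels. Of all 15 genes found, 8 reached 1 FPKM in diploid NPCs, 14 in haploid ESCs and 15 in diploid ESCs. Of all 23697 genes, 14022, 13147 and 13721 did, in that order. The list's median was -4.20 on the log2 scale. The count at least 4-fold lower was 12 with TMM factors and with TPM, beside 6.78% and 8.30% of all genes. LIN28A, an RNA-binding protein that blocks let-7 maturation, had the lowest log2 ratio with a pseudocount of 1, at 0.67 FPKM in diploid NPCs, 281 FPKM in haploid ESCs and 257 FPKM in diploid ESCs. VRTN and FOXD3 had the lowest levels in diploid NPCs, where both were listed at 0. SOX2, the partner of POU5F1, stood apart with 109 FPKM in diploid NPCs, 161 FPKM in haploid ESCs and 149 FPKM in diploid ESCs, so POU5F1 was 0.0138 times the SOX2 level in diploid NPCs, 8.29 times in haploid ESCs and 12.4 times in diploid ESCs. In haploid against diploid ESCs no gene of this list reached 4-fold, and the median was -0.33. Of all genes, 2.53% were at least 4-fold lower there and 1.04% at least 4-fold higher.

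**Figure D4:**
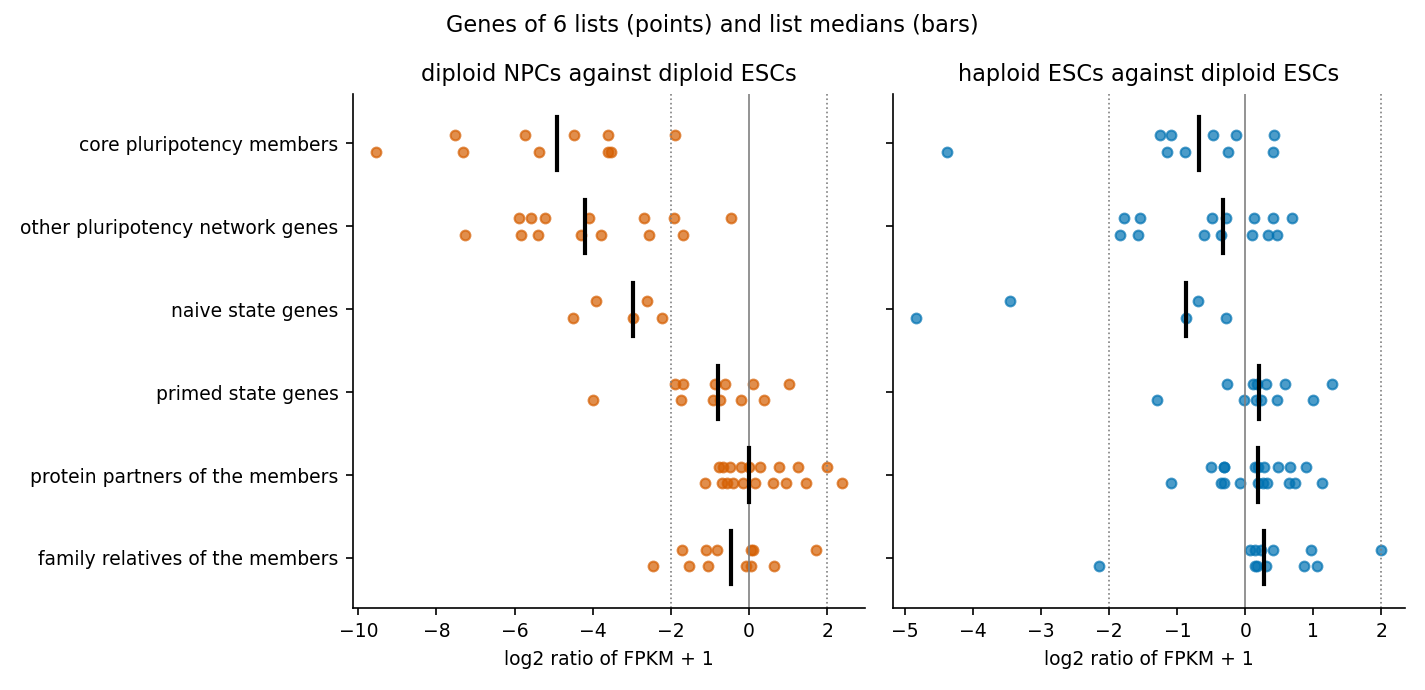
Log2 ratios of FPKM plus 1 of the measured genes of 6 lists (points) with list medians (black bars), for diploid NPCs against diploid ESCs (left) and haploid against diploid ESCs (right); dotted lines mark 4-fold, and the horizontal scales of the panels differ. In the left panel the medians are -4.92 for the members and -4.20 for the other network genes, while that of the protein partners is at 0.00.

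Markers of the naive and primed states, an earlier and a later form of pluripotency, differed in abundance. Of 15 naive genes found, 3 reached 1 FPKM in diploid NPCs, 4 in haploid ESCs and 6 in diploid ESCs. Of all 23697 genes, 14022, 13147 and 13721 did, in that order. The filter was passed by 5 naive genes, mostly through their ESC levels, so no count of differences is drawn from them. NR0B1, which failed it, was at 1.16 FPKM in diploid NPCs, 0.04 FPKM in haploid ESCs and was listed at 0 in diploid ESCs. Of the 5, DPRX and KLF5 differed most between the ESC libraries. DPRX was listed at 0 in haploid ESCs against 27.7 FPKM in diploid ESCs, and KLF5 was at 2.13 against 33.4 FPKM. DPRX passed the filter only through its diploid ESC level. KLF17 and DPPA5, which are high in the naive state in human, did not exceed 0.1 FPKM in any library. The 12 primed genes were all measured at 1 FPKM or more in every library. OTX2 was at 6.14 FPKM in diploid NPCs, 44.7 FPKM in haploid ESCs and 112 FPKM in diploid ESCs. Only OTX2 was at least 4-fold lower in diploid NPCs than in diploid ESCs, as 6.11% of all genes were. With TMM factors the count was 2, beside 6.78% of all genes. With 12 genes, counts this small cannot be told apart from those shares.

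Genes whose products act with the members, such as Polycomb and NuRD subunits, had a median log2 ratio of 0.00 in diploid NPCs against diploid ESCs, or -0.13 with TMM factors. None of the 19 was at least 4-fold lower, as 6.11% of all genes were. At least 4-fold higher were 2, beside 8.28% of all genes, or 1 with TMM factors or TPM, beside 6.90% and 9.60%. With 19 genes, counts this small cannot be told apart from those shares. CETN2, a centrin that USP44 binds, was the highest, at 129 FPKM in diploid NPCs, 53.3 FPKM in haploid ESCs and 24.0 FPKM in diploid ESCs. CRBN, the cereblon subunit through which thalidomide leads to SALL4 breakdown, was at 6.88 FPKM in diploid NPCs, 20.4 FPKM in haploid ESCs and 10.6 FPKM in diploid ESCs.

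Family relatives of the members were set beside them. SALL2 was at 47.3 FPKM in diploid NPCs, 53.9 FPKM in haploid ESCs and 43.6 FPKM in diploid ESCs, so SALL4 was 0.0658 times the SALL2 level in diploid NPCs, 0.821 times in haploid ESCs and 1.12 times in diploid ESCs. SALL3 was at 0.66 FPKM in diploid NPCs, 35.1 FPKM in haploid ESCs and 8.1 FPKM in diploid ESCs. USP49, the closest relative of USP44, went the other way from it, at 15.2 FPKM in diploid NPCs, 4.8 FPKM in haploid ESCs and 3.93 FPKM in diploid ESCs. Of 12 measured relatives, 7 were lower and 5 higher in diploid NPCs than in diploid ESCs, where 49.6% of all genes were lower. With TMM factors 10 were lower and 2 higher, so no direction is drawn for the relatives. SALL3 alone was at least 4-fold lower, as 6.11% of all genes were. With a pseudocount of 0.1 the count was 2, beside 10.5% of all genes. With 12 genes, these counts cannot be told apart from those shares.

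The 10 genes outside the list whose profile over the 3 libraries lay nearest to the members' median profile were STXBP2, EOMES, NMRK2, MT2A, IFITM1, ARHGAP36, GJA1, DSP, FZD8 and MYC. Likeness was the Euclidean distance between log2 values of FPKM plus 1, each gene centred on its own mean, and ran from 0.17 to 0.44 for these genes. The members themselves lay 0.47 to 4.09 from their own median profile, so the list does not follow 1 common profile. With a pseudocount of 0.1 only STXBP2 stayed among the nearest 10.

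Markers of the labelled cell types and of others were examined last. Of 12 neural progenitor genes, 12 reached 1 FPKM in diploid NPCs, 8 in haploid ESCs and 6 in diploid ESCs. Of the 11 past the filter, 5 were at least 4-fold higher in diploid NPCs than in diploid ESCs, as 8.28% of all genes were. SOX2 alone of the 11 was lower. SOX1, which passed the filter only through its NPC level, was at 18.2 FPKM in diploid NPCs, 0.14 FPKM in haploid ESCs and 0.09 FPKM in diploid ESCs. NES was at 280 FPKM in diploid NPCs, 266 FPKM in haploid ESCs and 253 FPKM in diploid ESCs. SOX3 and CDH2 were higher in haploid ESCs than in diploid NPCs. Markers of neurons, a later cell type, summed to 745 FPKM in diploid NPCs, 74.1 FPKM in haploid ESCs and 66.7 FPKM in diploid ESCs. Of 10 neuron genes, 9 reached 1 FPKM in diploid NPCs, 6 in haploid ESCs and 6 in diploid ESCs. Of all 23697 genes, 14022 reached it in diploid NPCs, 13147 in haploid ESCs and 13721 in diploid ESCs. GAP43, a growth cone protein, was at 292 FPKM in diploid NPCs, 29.3 FPKM in haploid ESCs and 17.0 FPKM in diploid ESCs. RBFOX3 alone of the neuron genes was lower in diploid NPCs than in diploid ESCs. It was at 0.45 FPKM in diploid NPCs, 0.23 FPKM in haploid ESCs and 5.85 FPKM in diploid ESCs. The part of neurons in the low NPC levels of the members was not tested. Of the 10 members, UTF1 alone stayed below 1 FPKM in haploid ESCs. Markers of mesendoderm and endoderm differed between the ESC libraries: of 12 genes, 4 reached 1 FPKM in diploid NPCs, 7 in haploid ESCs and 11 in diploid ESCs, and their summed level was 42.4 FPKM in diploid NPCs, 86.5 FPKM in haploid ESCs and 1086 FPKM in diploid ESCs. The secreted antagonist CER1 was the highest of them in diploid ESCs, at 0.26 FPKM in diploid NPCs, 37.6 FPKM in haploid ESCs and 663 FPKM in diploid ESCs. EOMES, SOX17 and TBXT were listed at 0 in diploid NPCs. The part of this in the lower UTF1, PRDM14, DPPA2 and ZFP42 levels of haploid ESCs was not tested.

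Germ cell, amnion and fibroblast markers were present at unequal levels. The sum of 10 primordial germ cell markers was 58.9 FPKM in diploid NPCs, 111 FPKM in haploid ESCs and 153 FPKM in diploid ESCs, of which PDPN made up 35.8 FPKM in diploid NPCs, 103 FPKM in haploid ESCs and 53.7 FPKM in diploid ESCs. SOX17, which is also on the endoderm list, was listed at 0 in diploid NPCs and made up 0.1 FPKM of the sum in haploid ESCs and 60.4 FPKM in diploid ESCs. KIT made up 0.48 FPKM in diploid NPCs, 0.84 FPKM in haploid ESCs and 19.1 FPKM in diploid ESCs. DAZL was listed at 0 in diploid NPCs and haploid ESCs and stood at 0.14 FPKM in diploid ESCs, and DDX4 did not exceed 0.31 FPKM. NANOS3 was at 18.4 FPKM in diploid NPCs, 0.04 FPKM in haploid ESCs and 0.37 FPKM in diploid ESCs. It alone of the 6 germ cell markers past the filter was higher in diploid NPCs than in diploid ESCs. The other 5 were lower, as 49.6% of all genes were. Among these were PRDM1, at 1.32 FPKM in diploid NPCs against 6.63 FPKM in diploid ESCs, and TFAP2C, at 1.36 against 10.1 FPKM. Amnion and trophectoderm markers summed to 2.11 FPKM in diploid NPCs, 12.4 FPKM in haploid ESCs and 31.9 FPKM in diploid ESCs. Fibroblast markers summed to 115 FPKM in diploid NPCs, 702 FPKM in haploid ESCs and 474 FPKM in diploid ESCs. Of the 9 past the filter, 2 were at least 4-fold higher in haploid than in diploid ESCs, as 1.04% of all genes were. These were ACTA2, at 123 against 17.8 FPKM, and COL3A1, at 61.1 against 13.1 FPKM. COL1A2 was at 161 against 61.0 FPKM. None was at least 4-fold lower. THY1, which is also on the primed list, made up 36.4 FPKM of the sum in diploid NPCs, 137 FPKM in haploid ESCs and 138 FPKM in diploid ESCs. LUM did not exceed 2.17 FPKM in any library, and FAP did not exceed 0.09 FPKM. These genes are not markers of feeder cells alone. COL1A1, a collagen chain, was at 12.7 FPKM in diploid NPCs, 206 FPKM in haploid ESCs and 235 FPKM in diploid ESCs. Of 10 fibroblast genes 8 reached 1 FPKM in diploid NPCs, 8 in haploid ESCs and 7 in diploid ESCs. Of all 23697 genes, 14022, 13147 and 13721 did, in that order. With 10 genes, such counts cannot be told apart from the share over all genes. The part of feeder cells or fibroblasts in the ESC values was not tested.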

How the data were processed

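Trizol-extracted total RNA was read on a BGISEQ-500, per the labels. STAR 2.4, per the submitters' processing notes, placed reads on UCSC Rhesus8, allowing 2 mismatches; featureCounts with its defaults gave reads per gene, and genes summing to over 10 reads were retained, per the labels. FPKM values were deposited to 2 decimals. The labels state neither how they were computed nor whether strand was used.

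Columns were matched to samples by the description that starts their names. A further 1 column of values fits no sample's labels and was left aside, so haploid NPCs are not covered. Relative depth is the most frequent ratio between libraries of values from 0.15 to 0.6 FPKM, where equal read numbers fall on equal steps. Copies were found by the table's protein descriptions alone, without a check of their sequences. Neighbours came from T2T-MMU8v2.0, another assembly than the one mapped to, so no coordinates are given. Named were the members, the 10 nearest profiles among genes with a symbol other than a LOC placeholder, and the copies. Some of the extremes and zeros of the lists and some neighbours were named too. Other extremes, such as DNMT3B, LIN28B and ELAVL3, were left out. CRBN, SOX1, SOX3, NES, KLF5, SALL2, TERT, NR0B1, GAP43, KIT, THY1, COL1A2, COL3A1 and the copies were chosen after their values were seen. Of 144 listed symbols 142 were found, 4 by gene ID. Members and lists were chosen with earlier results of these data known. Scripts were tested on simulated data. Tried as alternatives were TMM factors, TPM, 2-fold and 8-fold sizes, a pseudocount of 0.1, filters at none and at 5 FPKM on average, and haploid ESCs as the NPC reference. Python 3.11.15, numpy 2.4.6, pandas 2.3.3 and matplotlib 3.10.9 were used.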

Additional observations from a re-analysis of the deposited data

How the results depend on the processing

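The count of members lower in diploid NPCs than in diploid ESCs was 9 or 10 under every alternative listed, with haploid ESCs as the reference too. The share of all genes lower was 19.6% at 2-fold, 2.15% at 8-fold and 10.5% with a pseudocount of 0.1. It was 8.30% with TPM, 6.78% with TMM factors and 7.9% with haploid ESCs as the reference. The count lower in haploid than in diploid ESCs was 1, except at the 2-fold size, where it was 4, beside 9.18% of all genes. Elsewhere that share ran from 0.76% at 8-fold to 5.03% with a pseudocount of 0.1. The count higher was 0 under each alternative, beside 0.283% of all genes at 8-fold and 7.19% at 2-fold. TMM factors moved the median log2 ratio of all genes in the NPC comparison to -0.12, against 0.01 as deposited, with the members at -4.95. A pseudocount of 0.1 moved the members' median there to -6.79, since most NPC values lie below 1 FPKM. Adding annotated copies to the members, chosen after seeing the data, left the counts at 9 lower in NPCs and 1 lower and 0 higher in haploid ESCs. Of the 10 genes nearest to the members' profile, 1 stayed with a pseudocount of 0.1; the cause was not tested. No paired analysis was possible because each group holds 1 library, and for the same reason no replicate could be left out. Without read totals no counting interval or floor could be set for the NPC values below 1 FPKM.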
